A study of Mus musculus with 2 samples.

Results

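Notch signalling was described in mouse small intestinal epithelium through 8 genes: the ligand genes Jag1, Dll1 and Dll4, the receptor genes Notch1 and Notch2, the receptor-modifying enzyme gene Lfng, the target gene Hes1 and the fate factor gene Atoh1. They were taken by gene name from a table of 12631 rows, and each of the 8 had 1 row. The table held 1 library from a mouse deleted for Myh9 (genotype Myh9-/-) and 1 library from a control mouse (genotype wild type). Both animals were C57BL/6, were 8 weeks old and received tamoxifen on 5 days to induce the deletion, the control included, and RNA was taken at day 5. Myh9 encodes a heavy chain of the contractile motor non-muscle myosin IIA. The sources used here do not name the promoter that drives the recombinase. With 1 animal in each group there was no replicate error and no test, so every difference below is between these 2 libraries.

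Notch is a signal between touching cells. Delta and Jagged ligands on one cell bind a Notch receptor on its neighbour, proteases then cut the receptor, and the freed intracellular part enters the nucleus and turns on repressors such as Hes1 with the DNA-binding protein Rbpj. In the intestinal crypt, cells that receive the signal keep Hes1 on and Atoh1 off and stay stem cells or become absorptive cells, while cells that escape it turn on Atoh1 and become secretory. Secretory cells of the crypt carry Dll1 and Dll4 and signal to their neighbours through Notch1 and Notch2.

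The sequences just before the start of the 5 genes that differed by at least 1.4-fold are shown because this is where such regulators can act. Each runs 5′ to 3′ on the gene's own strand, from 250 bases before the RefSeq start and 300 bases long, on GRCm38.p6. Capitals mark 4 motifs, searched on both strands: the Rbpj core TGGGAA, its longer form GTGGGAA, which contains the core, the N box CACNAG that Hes repressors bind, and the E box CAGCTG of basic helix-loop-helix factors such as Atoh1. Lfng lies on the plus strand, with its window at chr5:140607091-140607390, and Atoh1 on the plus strand at chr6:64728875-64729174. Dll1 is on the minus strand, here with the farther upstream of its 2 listed starts at chr17:15376883-15377182. Dll4 is on the plus strand at chr2:119325534-119325833, and Jag1 on the minus strand at chr2:137116471-137116770.
Lfng: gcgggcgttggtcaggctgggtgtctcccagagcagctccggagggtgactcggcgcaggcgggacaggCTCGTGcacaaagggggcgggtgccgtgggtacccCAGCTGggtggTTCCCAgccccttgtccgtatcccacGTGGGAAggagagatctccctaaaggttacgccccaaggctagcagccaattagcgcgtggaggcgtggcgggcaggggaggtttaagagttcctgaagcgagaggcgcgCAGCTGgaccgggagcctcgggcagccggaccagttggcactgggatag
Atoh1: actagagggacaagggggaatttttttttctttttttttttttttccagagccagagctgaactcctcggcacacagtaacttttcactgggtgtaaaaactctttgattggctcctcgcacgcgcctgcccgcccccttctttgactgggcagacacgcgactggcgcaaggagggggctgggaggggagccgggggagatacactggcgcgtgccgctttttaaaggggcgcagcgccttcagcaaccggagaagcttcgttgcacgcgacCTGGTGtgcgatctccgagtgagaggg
Dll1: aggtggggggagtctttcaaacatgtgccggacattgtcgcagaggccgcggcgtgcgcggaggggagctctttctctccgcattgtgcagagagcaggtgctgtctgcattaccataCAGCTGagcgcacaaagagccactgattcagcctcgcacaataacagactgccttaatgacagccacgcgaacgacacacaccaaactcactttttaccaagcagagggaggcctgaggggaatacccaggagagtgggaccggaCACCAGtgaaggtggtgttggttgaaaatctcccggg
Dll4: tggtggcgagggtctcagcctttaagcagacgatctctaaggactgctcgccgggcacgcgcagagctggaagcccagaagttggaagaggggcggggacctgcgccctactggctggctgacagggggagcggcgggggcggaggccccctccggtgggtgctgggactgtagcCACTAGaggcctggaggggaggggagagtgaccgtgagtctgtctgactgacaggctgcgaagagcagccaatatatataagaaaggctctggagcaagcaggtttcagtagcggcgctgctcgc
Jag1: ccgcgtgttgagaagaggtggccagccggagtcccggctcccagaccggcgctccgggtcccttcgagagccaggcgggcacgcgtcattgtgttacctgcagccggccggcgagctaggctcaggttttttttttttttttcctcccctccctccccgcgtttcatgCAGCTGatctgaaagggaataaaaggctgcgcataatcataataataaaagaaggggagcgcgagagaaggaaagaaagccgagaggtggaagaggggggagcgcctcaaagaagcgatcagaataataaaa

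The RefSeq table held 8 windows for 7 of the genes. It held none for Hes1, whose promoter was therefore not searched. The Rbpj core was present in 1 of the 8, that of Lfng, which held it at 135 bases before the start on the opposite strand and at 108 bases before it on the same strand. The nearer copy was the longer form, beginning 109 bases before the start. Of all 32851 windows in the table, 25.6% held the core and 6.38% the longer form. The N box was found in 6 of the 8 member windows, against 42.5% of all windows. In Atoh1 it lay 23 bases past the start base. The E box was found in 3 of the 8, those of Lfng, Dll1 and Jag1, against 16.3% of all windows. The window at the other Dll1 start held none of the 4 motifs. A match describes these letters only and is neither a bound site nor a cause.

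The levels are the deposited values less an added 1. The sources used here name no unit, so levels of different genes are not ranked against each other. Folds and log2 folds compare levels to which 1 was added back. Ratios of 2 genes and summed levels use the levels without the added 1. A gene entered the counts if either library had a level of 1 or more, and it was called higher or lower in the knockout library past the 1.4-fold threshold that the labels state. Myh9 was 13.6 in the knockout library and 99.5 in the control library, a log2 fold of -2.78, so the targeted gene was lower in the library labelled Myh9-/-. All 10 epithelial markers searched had a row, with Epcam, an epithelial adhesion gene, at 633 in the knockout library and 680 in the control library. Of the 10, 2 were called higher and none lower: the keratin genes Krt18, at 488 in the knockout library and 250.3 in the control library, and Krt20, at 615 in the knockout library and 435 in the control library. Sequencing depth is unknown.

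Of the 8 genes, 2 were called higher in the knockout library (Jag1 and Dll4), 3 were called lower (Lfng, Atoh1 and Dll1) and 3 lay between (Hes1, Notch1 and Notch2). Each of the 8 had a level of at least 1 in both libraries, so none was included through 1 library alone. Among all 12152 included genes, 32.3% were called in either direction, 15.9% higher and 16.3% lower. Among included genes whose mean level lay from 1 to below 5, which takes in Jag1, Dll4 and both receptors, the called share was 35.2%, and from 5 to below 20, which takes in Lfng, Atoh1 and Dll1, it was 29.6%. For genes at 20 or more, where Hes1 lies, it was 27.8%. A 1.4-fold difference between these 2 libraries was thus common at the levels of these genes. The median log2 fold was -0.31 over the 8 genes and -0.0037 over all included genes.

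**Figure D1:**
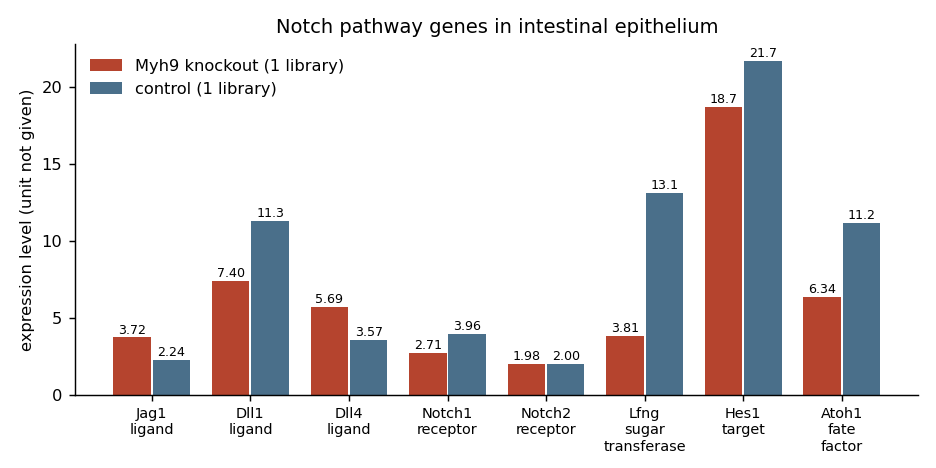
Bars give the expression level (linear axis, unit not given) of each of the 8 genes, with the knockout library left of the control library and 1 library per bar, so there are no error bars. Lfng shows the widest gap, at 3.81 in the knockout library and 13.1 in the control library, while the Notch2 bars are at 1.98 and 2.00.

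The ligand genes did not move as a block. Jag1, a Jagged ligand (chromosome 2, 137081456 to 137116644, minus strand, mm10), was 3.72 in the knockout library and 2.24 in the control library, 1.46-fold higher (log2 fold 0.55). Dll4, a Delta-like ligand best known from vessels and also made by crypt secretory cells (chromosome 2, 119325784 to 119335962, plus strand), was 5.69 in the knockout library and 3.57 in the control library, 1.47-fold higher (log2 fold 0.55). Dll1, the other Delta-like ligand of the crypt (chromosome 17, 15367354 to 15376872, minus strand), went the other way, at 7.40 in the knockout library and 11.3 in the control library, 1.46-fold lower (log2 fold -0.55). These folds lie close to the 1.4-fold line, and the Dll1 call was lost under 3 of the 4 rescalings of the libraries, where its log2 fold was between -0.48 and -0.45.

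A ratio of 2 genes within a library cancels any scaling of that library, and its change between libraries cancels gene length. Such ratios were taken on levels without the added 1, so they are not on the scale of the folds above. The ratio of Dll4 to Dll1 was 2.43-fold higher in the knockout library than in the control library, and that of Jag1 to Dll1 was 2.54-fold higher. Both ratios set a gene called higher over a gene called lower. On the same levels Dll4 was 1.60-fold and Jag1 1.66-fold higher, and Dll1 was 1.52-fold lower. How often other gene pairs differ as much was not computed. The ratio of Jag1 to Dll4 differed by 1.04-fold.

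Jag2, the remaining ligand with a row, was 1.02 in the knockout library and 0.586 in the control library. It was included through the knockout library alone and lay between the 1.4-fold lines. With a pseudocount of 0.1 or none Jag2 was past the line, at log2 folds of 0.71 and 0.80. The sources used here do not say whether the libraries kept strand, so reads of overlapping genes cannot be assigned with certainty. Dll4 overlaps the opposite-strand gene Gm14207, which was 1.60 in the knockout library and 2.65 in the control library. Endothelial cells also make Dll4 and Jag1, and none of the 8 endothelial markers searched (among them Pecam1, Cdh5 and Kdr) had a row in the table used here. Genes low in both libraries had no row, so this does not show that such cells were absent. Their part in these levels was not tested.

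The receptor genes differed less. Notch1 (chromosome 2, 26457903 to 26516663, minus strand) was 2.71 in the knockout library and 3.96 in the control library, 1.34-fold lower and short of the 1.4-fold line (log2 fold -0.42). Without a pseudocount it was 1.46-fold lower (log2 fold -0.55), so whether Notch1 passes the line rests on the pseudocount. The opposite-strand gene 0610009E02Rik, which overlaps the 3′ end of Notch1, was 1.36 in the knockout library and 2.58 in the control library.

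Notch2 (chromosome 3, 98013527 to 98150361, plus strand), the other receptor of crypt stem cells, was 1.98 in the knockout library and 2.00 in the control library, a log2 fold of -0.01 whose sign turned under 3 of the 4 rescalings. On levels without the added 1, the ratio of Notch1 to Notch2 was 1.44-fold lower in the knockout library. Notch4, a receptor of endothelium, was 1.01 in the knockout library and 1.07 in the control library, also between the lines.

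Lfng had the largest difference of the 8 genes. It encodes Lunatic fringe, a Golgi enzyme that adds N-acetylglucosamine to O-fucose on Notch receptors and favours their activation by Delta over Jagged ligands (chromosome 5, 140607320 to 140615545, plus strand). Lfng was 3.81 in the knockout library and 13.1 in the control library, 2.94-fold lower (log2 fold -1.56). Of the 12152 included genes, 134 had a lower log2 fold, and 8.77% were past 2-fold, 4.49% higher and 4.28% lower. Lfng was the single one of the 8 genes past 2-fold, and it kept its call under all 9 other settings, with log2 folds from -1.79 to -1.47. The settings that changed the minimum level left its fold as it was.

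Of the other enzymes that act on the receptor's sugars, 1 of 3 included was called, against 32.3% of all included genes. Pofut1, which adds the O-fucose that fringe enzymes extend, was 6.81 in the knockout library and 11.2 in the control library, 1.56-fold lower. Rfng, Radical fringe, was 11.6 in the knockout library and 16.5 in the control library, 1.39-fold lower and just inside the line. With a pseudocount of 0.1 or none Rfng was past the line, at log2 folds of -0.50 and -0.51. Poglut1, which adds O-glucose, was 4.05 in the knockout library and 3.99 in the control library, and Mfng, Manic fringe, was under 1 in both libraries, at 0.809 in the knockout library and 0.710 in the control library. The ratio of Lfng to Rfng was 2.43-fold lower in the knockout library, so the difference in Lfng was larger than that in its relative.

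Hes1, the repressor that Notch turns on in crypt cells (chromosome 16, 30064384 to 30067796, plus strand), was 18.7 in the knockout library and 21.7 in the control library, 1.15-fold lower and between the lines (log2 fold -0.20). It stayed between the lines under all 9 other settings, with log2 folds from -0.21 to -0.10. Of these, only the smaller pseudocounts moved its fold nearer the line, and the filters and the 2-fold threshold left it unchanged. Atoh1, the basic helix-loop-helix factor that Hes1 represses and that commits cells to the secretory lineage (chromosome 6, 64729125 to 64731245, plus strand), was 6.34 in the knockout library and 11.2 in the control library, 1.66-fold lower (log2 fold -0.73). Of the included genes, 8.39% had a lower log2 fold than Atoh1. The ratio of Atoh1 to Hes1 was 1.52-fold lower in the knockout library, and the ratio of Lfng to Hes1 was 2.97-fold lower. In whole epithelium, fewer cells that carry a transcript and less of it per cell cannot be told apart.

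**Figure D2:**
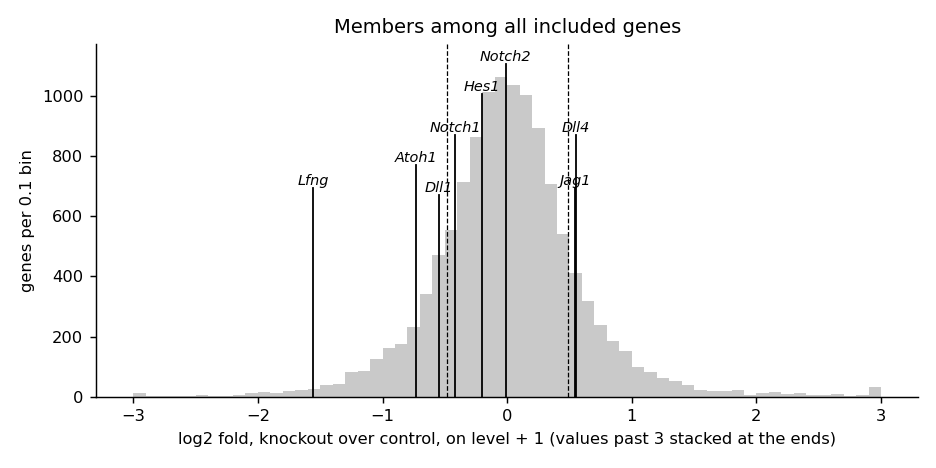
The histogram counts included genes per bin of log2 fold (knockout over control, on level plus 1), with vertical lines at the 8 genes and dashed lines at 1.4-fold. Lfng stands in the lower tail at -1.56, Notch2 sits at the centre, and Jag1 and Dll4 share nearly the same fold at 0.55.

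In the rest of the pathway most genes lay between the 1.4-fold lines. Across 9 role lists of 71 genes in all, 54 had a row and 51 were included, of which 3 were called higher, 8 lower and 40 lay between. Without the 8 genes, 43 were included, with 1 called higher, 5 lower and 37 between, so that 14.0% were called, against 32.3% of all included genes. Their median log2 fold was -0.06. Of the 51, 3 were included through 1 library alone. The 3 rescalings that multiplied the knockout library by 1.06 to 1.08 raised the number called higher in the 51 genes to 5 and left 7 lower.

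Among feedback genes and relatives of Hes1, 2 were lower. Nrarp, a Notch-induced protein that restrains the signal, was 4.12 in the knockout library and 10.7 in the control library, 2.28-fold lower (log2 fold -1.19). Its opposite-strand neighbour Gm38287 covers nearly the whole gene and was 4.09 in the knockout library and 7.55 in the control library, so the Nrarp value is uncertain. Hes2, a repressor of the Hes family, was 5.09 in the knockout library and 11.6 in the control library, 2.06-fold lower. Hes6, a relative that counters Hes1 in nervous tissue, was 23.2 in the knockout library and 22.8 in the control library. The Hes and Hey list, which also holds Nrarp, thus had 2 of 4 included genes lower, against 16.3% of all included genes. Among its Hes genes with a row, Hes2 alone was called. The other 6 genes of the list, among them Hes5, Hey1 and Hey2, had no row.

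Ligand handling and the nuclear complex each had 1 called gene, of 3 and 9 included, against 32.3% of all included genes. Mib2, a ubiquitin ligase for Notch ligands, was 8.79 in the knockout library and 14.6 in the control library, 1.59-fold lower, whereas its relative Mib1 was 11.3 in the knockout library and 9.60 in the control library. Tle1, a Groucho corepressor that works with Hes proteins, was 36.3 in the knockout library and 19.3 in the control library, 1.84-fold higher, the largest difference upward in the 51 genes. Rbpj, the DNA-binding partner of the cut receptor, was 4.65 in the knockout library and 4.08 in the control library, and the coactivator gene Maml1 was 3.17 in the knockout library and 2.95 in the control library. Ep300, a histone acetyltransferase of the same complex, was 22.6 in the knockout library and 16.0 in the control library, 1.38-fold higher and past the line under the 3 rescalings above and with a pseudocount of 0.1 or none.

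None of the 8 included receptor cleavage genes passed 1.4-fold, with log2 folds from -0.28 to 0.42. They include Adam10, the protease that cuts the bound receptor, at 40.6 in the knockout library and 32.8 in the control library. Furin, which cleaves the receptor on its way to the surface, was 37.7 in the knockout library and 27.9 in the control library and passed 1.4-fold under the same rescalings. Of the 7 included turnover and inhibitor genes, 1 was called, against 32.3% of all included genes. Dtx1, a Deltex ubiquitin ligase, was 3.32 in the knockout library and 5.44 in the control library, 1.49-fold lower. Numb, an inhibitor of the receptor, was 42.6 in the knockout library and 45.8 in the control library.

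**Figure D3:**
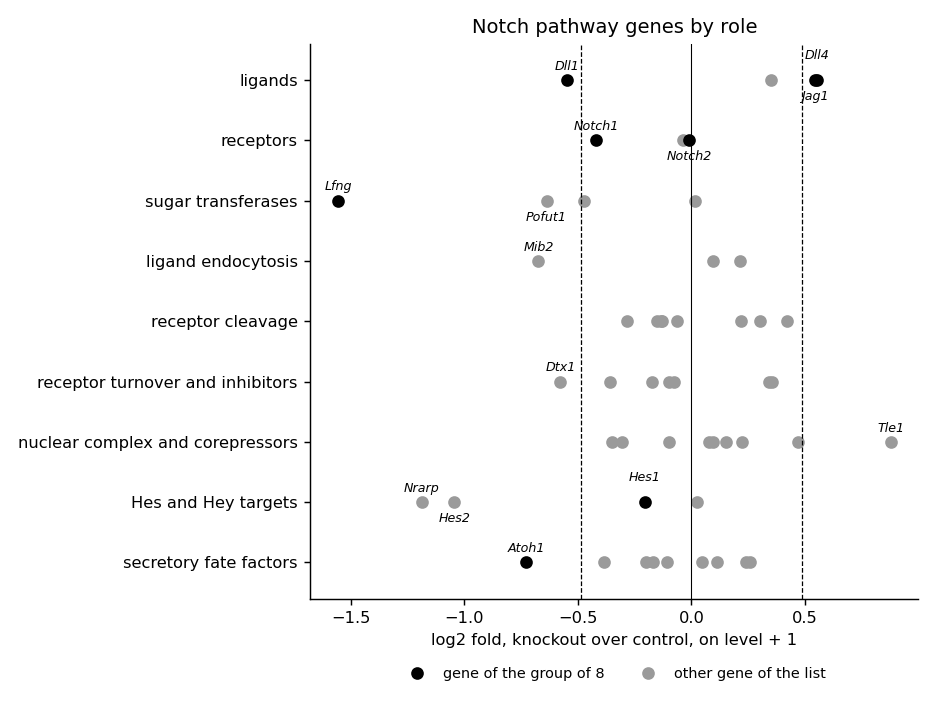
Each point is an included gene of the Notch lists, placed by log2 fold (knockout over control, on level plus 1) in the row of its role, with the 8 genes in black, dashed lines at 1.4-fold, and names given to the 8 genes and to called genes. Receptor cleavage genes lie within the lines, and Lfng, Nrarp and Hes2 lie farthest to the left.

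Among secretory fate factors, Atoh1 was the single gene called of 9 included, against 32.3% of all included genes. Spdef, which acts in goblet and Paneth cells, was 13.8 in the knockout library and 12.7 in the control library, and the ratio of Atoh1 to Spdef was 1.92-fold lower in the knockout library. Gfi1, a repressor that favours goblet and Paneth over enteroendocrine fate, was 2.92 in the knockout library and 4.12 in the control library, 1.31-fold lower. Without a pseudocount Gfi1 was past the 1.4-fold line, at a log2 fold of -0.50. Neurog3, which starts the enteroendocrine lineage, was 2.28 in the knockout library and 2.18 in the control library.

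The products of the secretory lineages were uneven; among all included genes, 15.9% were called higher and 16.3% lower, and at a mean level of 20 or more 27.8% were called either way. Of 7 Paneth cell markers 5 were lower and none higher, with Lyz1, the Paneth lysozyme, at 1653 in the knockout library and 2797 in the control library. Of 7 goblet cell markers 3 were lower and none higher, with the mucus protein gene Fcgbp at 542 in the knockout library and 1132 in the control library, and Muc2, the main secreted mucin, at 44.9 in the knockout library and 38.6 in the control library. Of 8 enteroendocrine markers 4 were higher and 3 lower. Among the higher ones, the granin gene Chgb was 54.5 in the knockout library and 27.3 in the control library. Among the lower ones, Nts was 9.01 in the knockout library and 25.6 in the control library. Of 5 included tuft cell markers 3 were lower and none higher. Dclk1 was 0.301 in the knockout library and 4.26 in the control library and was included through the control library alone, and Ptgs1, at 1.60 in the knockout library and 0.879 in the control library, through the knockout library alone. Without the added 1, the summed level in the knockout library was 0.564 of that in the control library for Paneth markers. The figure was 0.734 for goblet, 0.950 for enteroendocrine and 0.594 for tuft markers. For Atoh1 alone it was 0.568, or 0.604 with the added 1. Of the summed 13950 of the Paneth list in the control library, 8707 came from Defa24, so such sums follow their largest values. Without Dclk1, left out after its value was seen, the tuft figure was 0.807. Their part in the difference in Atoh1 was not tested.

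Against the same 15.9% higher and 16.3% lower among all included genes, crypt base stem cell markers, whose cells receive the Notch signal, showed 4 of 6 lower and none higher, with Olfm4, a Notch-dependent stem cell gene, at 113 in the knockout library and 619 in the control library. Lymphocytes within the epithelium also carry Notch1 and fringe transcripts, and of 6 T cell markers 5 were lower and none higher, with a summed level of 407 in the knockout library and 911 in the control library. Cd3g, a subunit of the T cell receptor complex, was 17.9 in the knockout library and 32.3 in the control library. Of 3 included B and plasma cell markers 2 were higher, with Igha at 221 in the knockout library and 50.4 in the control library, and the B cell gene Ms4a1 had no row. Of 5 included myeloid markers 1 was higher and 3 were lower, and of 5 included fibroblast and smooth muscle markers 2 were higher and none lower. The higher myeloid gene, Cd68, at 3.02 in the knockout library and 0.266 in the control library, was included through the knockout library alone, as was 1 of the 2 higher fibroblast and smooth muscle genes, Acta2, at 2.51 in the knockout library and 0.748 in the control library. Their part in the differences in Lfng, Notch1 and Jag1 was not tested.

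**Figure D4:**
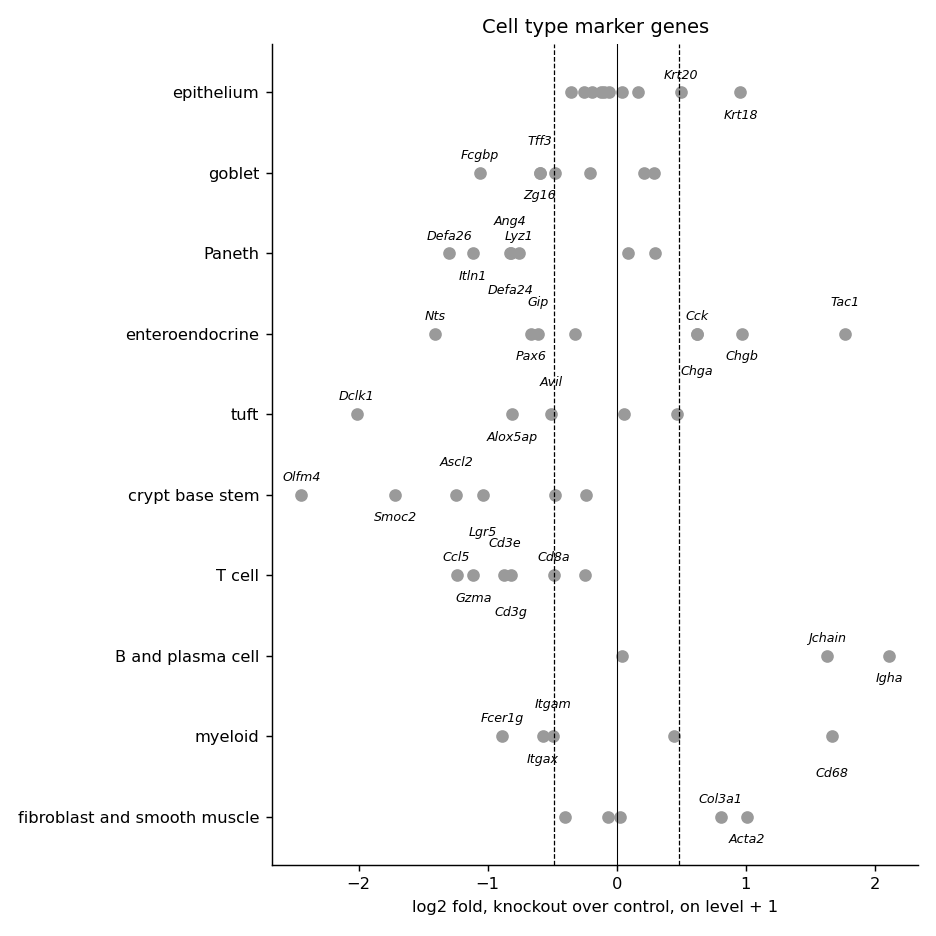
Each point is an included marker gene, placed by log2 fold (knockout over control, on level plus 1) in the row of its cell type, with dashed lines at 1.4-fold and names given to called genes; endothelial markers had no row and are not drawn. Stem cell, T cell and most Paneth points lie left of 0, and enteroendocrine points lie on both sides.

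Lfng stayed past the 1.4-fold line and Hes1 inside it under every scaling and pseudocount tried, while Dll1 crossed the line with the scaling and Notch1 with the pseudocount. Jag1 and Dll4 stayed past 1.4-fold higher under each pseudocount and scaling tried, with log2 folds of up to 0.74 for Jag1 and 0.67 for Dll4. Those settings could only raise their folds. The rescalings multiplied the knockout library by 1.003 to 1.08, and the other pseudocounts were smaller than the one used. The calls of Jag1 and Dll4 were therefore not put to a test by them. Atoh1 stayed past 1.4-fold lower under the same settings, with log2 folds from -0.82 to -0.63.

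**Figure D5:**
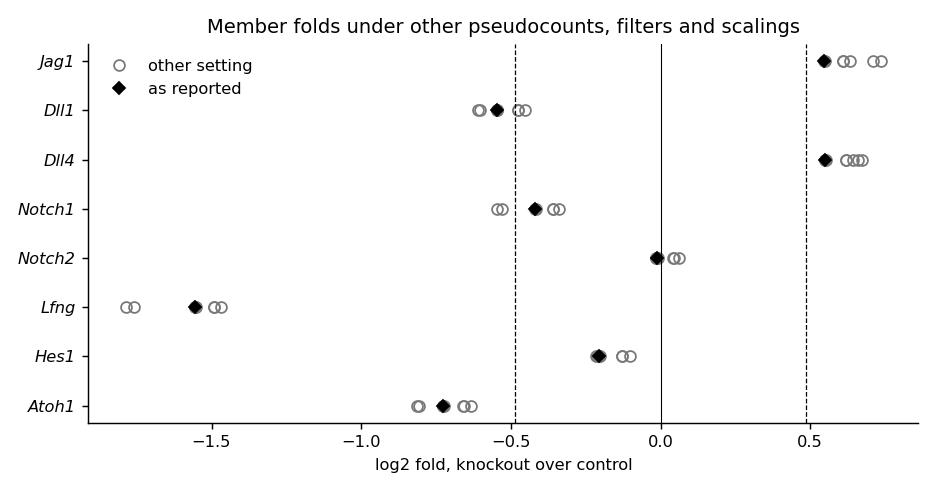
Diamonds give the log2 fold (knockout over control) of the 8 genes as reported and open circles the values under other pseudocounts, filters and scalings, with dashed lines at 1.4-fold. Circles of Dll1 and Notch1 fall on both sides of a dashed line, and those of Notch2 on both sides of 0.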

How the data were processed

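RNA sequencing of small intestinal epithelium gave 1 library from a Myh9-/- mouse and 1 from a control mouse. Per the labels' protocols, epithelium was released in EDTA (30 mM) and dithiothreitol (1.5 mM) for 30 min at 4 °C. The submitters' processing notes name HISAT2, StringTie and mm10, with no version or role. The deposited file gave 1 signal value per gene and library, and no source used here names its unit. No deposited value was below 1, and 1218 values of the knockout and 1118 of the control had more than 6 significant digits, which none had once 1 was subtracted. The values were therefore read as a level to which the authors had added 1. The authors' fold, a ratio, matched the deposited knockout value divided by the control value throughout, to within a relative difference of 1.22e-07. The smallest sum of both levels was 0.794, so genes low in both libraries had no row. Read depth is unknown, and no counting interval could be given.

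Columns were matched to samples by the animal number shared with the sample titles, and groups came from the genotype labels. From the levels, log2 folds were computed on level plus a pseudocount of 1, for genes whose larger level was at least 1, with Python 3.11.15 and pandas 2.3.3. The arithmetic of the fold rule was checked on simulated levels without noise and with large changes. That check does not show how reliable calls near the line are. The 8 genes were named in full. Of the role lists, called genes, genes that define a list and up to 2 others per list could be named. Mfng, Ep300, Furin, Neurog3, Sox9 and the overlapping genes were named beyond that rule, after their values were seen. Some members of the lists are counted but not reported here by name. The genes, lists and rules were chosen with earlier results of these data known. Alternatives used another pseudocount (0.1, or none), another minimum for the larger level (none, or 5), a threshold of 2-fold, and 4 ways to rescale the libraries. Gene positions and overlaps came from GENCODE M21 on GRCm38, the assembly that mm10 denotes, and promoter windows from RefSeq on GRCm38.p6.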

Additional observations from a re-analysis of the deposited data

How the results depend on the processing

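Of the 8 genes, 2 were called higher and 3 lower as reported. A larger level of at least 5 left 1 higher, since Jag1 then dropped out with both receptors, and a 2-fold threshold left 0 higher and 1 lower (Lfng). In the 51 genes of the Notch lists, 3 were called higher and 8 lower. The number higher became 5 with a pseudocount of 0.1, 5 with none, 0 at 2-fold, and 5 each when the libraries were scaled to equal listed totals, to equal totals without mitochondrial-genome and the 20 most abundant genes, or by epithelial markers. The number lower became 11 with a pseudocount of 0.1, 12 with none, 3 at 2-fold, and 7 under each of those 3 scalings. The median log2 fold of these genes, -0.07, turned to 0.0036, 0.019 and 0.0027 under those 3 scalings, so it has no stable sign. Over all included genes, 1936 higher and 1985 lower became 546 and 520 at 2-fold, and a larger level of at least 5, which left 8566 genes, gave 1284 lower. The scaling without mitochondrial-genome and most abundant genes gave 2444 higher and 1558 lower, which moved the higher share of calls to 61.1%, from 49.4% as reported. Leaving out a replicate could not be done with 1 library per group. No paired analysis was possible because each group held 1 sample. With no replicates and no read depth, no difference here can be set against biological or counting error.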

Other observations

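A second deposited sheet held 26 genes with values identical to the full table. It included 2 of the 8 genes, Hes1 and Atoh1, and 4 genes of the Notch lists in all, with Hes2 and Sox9. Sox9, a factor of crypt progenitors and Paneth cells, was 6.14 in the knockout library and 6.68 in the control library. The ligand and receptor genes and Lfng were not on that sheet.

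Annotated genes on the opposite strand also overlap Dll1 and Notch1 without a row of their own. On the same strand, Mir6996 overlaps Notch1, and Gm42819 and Gm42820 overlap Notch2, also without a row. No annotated gene overlaps Jag1, Lfng, Hes1 or Atoh1.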
